A study of Mus musculus with 6 samples.

Results

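Solute carriers are the large group of membrane proteins that move amino acids, sugars, ions, vitamins, nucleotides and organic acids across the plasma membrane and the membranes of organelles. RNA of 127 expressed solute carrier genes was compared between mouse proximal tubular epithelial cells (PTECs) treated for 6 h with palmitic acid (PA) bound to bovine serum albumin (BSA) and PTECs treated for 6 h with BSA alone. All cells were immortalized cultured wild-type PTECs, and the paper describes wild-type lines without saying how many entered the RNA-Seq. Each group had 3 libraries, and whether they stem from separate cultures is stated nowhere in the labels, so each p-value reflects only the spread among these libraries, which may be technical. The members were chosen by gene name and by their measured level: of 386 rows of the table that carry a solute carrier name, 85 were set aside by name (the mitochondrial and zinc carrier families and 14 carriers of lipids, amino acids, iron and glucose), and of the remaining 301 the 127 with a mean of at least 0.5 RPKM over the 6 libraries were kept. RPKM is the number of reads per kilobase of gene, scaled to the depth of the library. The table held 24421 genes, of which 11671 reached the same level and were tested together.

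In the proximal tubule, solute carriers take back most of the filtered nutrients: sodium-coupled carriers of the apical membrane draw amino acids, glucose, phosphate and citrate from the lumen, and carriers of the basolateral membrane pass them to the blood. Other members work inside the cell, where those of the Golgi apparatus supply nucleotide sugars for glycosylation and those of the lysosome return the products of digestion to the cytosol. The sodium pump keeps the gradient that drives the sodium-coupled carriers.

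The mean level ran from 0.506 RPKM to 73.9 RPKM among the members, with a median of 6.25 RPKM, against a median of 11.6 RPKM over all genes tested. Slc29a4 at 0.506 RPKM, Slc45a3 at 0.522 RPKM and Slc37a1 at 0.557 RPKM lay just inside the minimum, whereas Slc22a14 at 0.473 RPKM, Slco1a5 at 0.467 RPKM and Slc24a3 at 0.394 RPKM lay just outside it. Of the 174 rows below the minimum, 23 were listed at 0 in all 6 libraries. In 4 members 1 group averaged under 0.5 RPKM (3 with the lower mean in PA-treated PTECs and 1 in BSA-treated PTECs), so that these passed the minimum through their higher group, and 0 of the 4 passed the test. The name rule also found 8 members that encode no transporter, such as the scaffold protein genes Slc9a3r1 and Slc9a3r2 and the antisense transcript Slc13a2os, and these were kept in the counts. The depth was alike in both groups, with library sizes of 17850330 to 20189052 reads in PA-treated PTECs and 17679817 to 21568228 reads in BSA-treated PTECs. Among the BSA libraries, replicate 3 stood farthest from the others, with a chi-square per degree of freedom over gene reads of 6.34 and 7.77 against replicates 1 and 2, which gave 4.65 between each other; the PA libraries gave 1.83 to 3.0.

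The cells carried some proximal tubule markers and lacked others. Lrp2 and Aqp1 averaged 6.68 and 7.24 RPKM over the 6 libraries and Slc4a4, itself a member, 1.25 RPKM, while the other 11 of the 14 proximal tubule markers were at or below 1 RPKM, including the phosphate carrier gene Slc34a1 and the organic anion carrier genes Slc22a6 and Slc22a8, each under 0.01 RPKM. The renal lineage factor gene Pax8 averaged 55.1 RPKM, and the keratin genes Krt8 and Krt18 448.2 and 191.7 RPKM. The epithelial genes Cdh1 and Epcam were near 0, at 0.0452 and 0.210 RPKM. The 2 keratin genes made up most of the epithelial sum that follows. Krt8 averaged 407.2 RPKM in PA-treated PTECs and 489.2 RPKM in BSA-treated PTECs, and Krt18 170.3 and 213.1 RPKM. The summed level of 5 epithelial and renal markers was 615.2 to 642.5 RPKM in PA-treated PTECs and 743.3 to 787.1 RPKM in BSA-treated PTECs, and that of 5 fibroblast markers 1.39 to 1.97 RPKM in PA-treated PTECs and 2.3 to 2.5 RPKM in BSA-treated PTECs. The sum of 10 thick ascending limb, distal tubule and collecting duct markers was 0.131 to 0.177 RPKM in PA-treated PTECs and 0.221 to 0.324 RPKM in BSA-treated PTECs, with Umod at 0 in every library. Podocyte marker sums were 23.1 to 24.0 RPKM in PA-treated PTECs and 21.7 to 22.4 RPKM in BSA-treated PTECs, endothelial sums 4.65 to 5.28 RPKM in PA-treated PTECs and 4.24 to 4.58 RPKM in BSA-treated PTECs, and immune sums 5.38 to 6.22 RPKM in PA-treated PTECs and 5.19 to 7.07 RPKM in BSA-treated PTECs. The part of these markers in the results was not tested, and in bulk RNA fewer cells of a type and less RNA per cell cannot be told apart.

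Between PA-treated PTECs and BSA-treated PTECs, 23 of the 127 members rose and 9 fell at an adjusted p under 0.05 (limma on log2(RPKM + 0.1), Benjamini-Hochberg over all genes tested). These are 18.1% and 7.09% of the members, where 11.2% of all genes tested rose and 9.52% fell. With an absolute log2 fold change over 0.4 as a second threshold, 12 members rose and 4 fell (9.45% and 3.15% of the members), where the shares of all genes tested were 4.22% and 2.06%. All 3 PA libraries were above all 3 BSA libraries in 39 members (30.7%, against 18.2% of all genes tested) and below them in 21 members (16.5%, against 22.3%). The median log2 fold change was 0.01 over the members and -0.04 over all genes tested. The count of members that fell changed when 1 library was left out, in fits that test fewer libraries. It was 2 without PA replicate 2, without PA replicate 3 or without BSA replicate 2, and 5 without BSA replicate 1. In these fits the members that rose numbered 16, 17, 16 and 21, in the same order. Without BSA replicate 3, 20 members rose, 13 fell and 15 were past both thresholds.

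**Figure D1:**
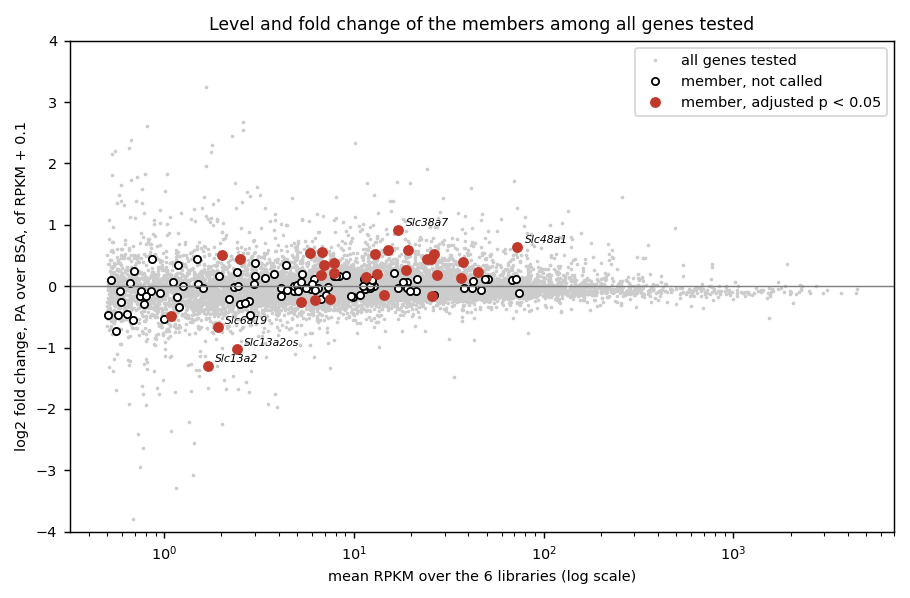
Mean RPKM over the 6 libraries (horizontal axis, log scale) and log2 fold change of PA over BSA (vertical axis) for all 11671 genes tested (grey) and the 127 members, filled where the adjusted p was under 0.05. The members span 0.506 to 73.9 RPKM and stay below the most abundant genes, Slc38a7 at 0.92 is the highest of them and Slc13a2 at -1.30 the lowest.

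**Figure D2:**
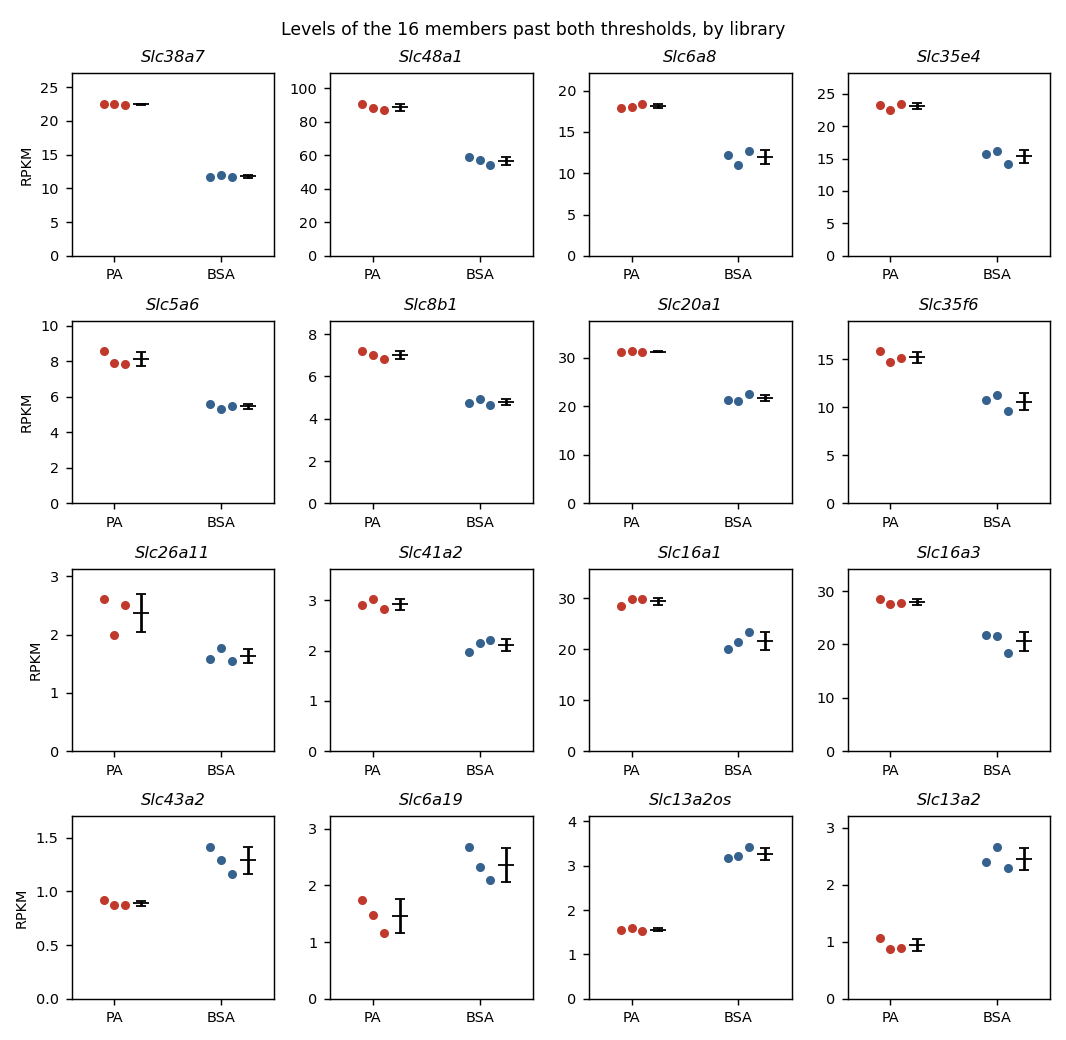
RPKM of the 16 members past both thresholds in each library, PA left and BSA right, each axis starting at 0; the bar beside the points gives the mean and the SD of 3 libraries. In all 16 the groups do not overlap, with 12 higher and 4 lower in PA-treated PTECs. The 16 were selected on this difference, so the lack of overlap, here and in the text, adds no further support.

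The count of each class below stands beside the shares of all genes tested, of which 11.2% rose and 9.52% fell. Among the amino acid and peptide carriers, 2 of 17 members rose and 2 fell, with a median log2 fold change of -0.02. Slc38a7, which exports glutamine and asparagine from lysosomes, had 22.5, 22.6 and 22.3 RPKM in PA-treated PTECs, against 11.8, 12.0 and 11.6 RPKM in BSA-treated PTECs. It was 1.90-fold higher (log2 fold change 0.92 ± 0.04 (SE), adjusted p = 7.64e-06), with a gap between the groups far wider than the spread within either. The gene lies on chromosome 8 of GRCm38, from 95835920 to 95853539 on the minus strand. Slc38a1, a sodium-coupled glutamine carrier of the plasma membrane and the most abundant member of the class, had 48.9, 48.8 and 49.0 RPKM in PA-treated PTECs, against 40.8, 41.4 and 42.2 RPKM in BSA-treated PTECs, a smaller rise (log2 fold change 0.24 ± 0.03 (SE), adjusted p = 0.00151) in which the groups also did not overlap.

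The 2 members that fell work on the 2 faces of the tubular cell. Slc6a19 encodes the apical carrier of neutral amino acids and had 1.75, 1.47 and 1.16 RPKM in PA-treated PTECs, against 2.68, 2.32 and 2.09 RPKM in BSA-treated PTECs. It was 1.59-fold lower (log2 fold change -0.67 ± 0.16 (SE), adjusted p = 0.0260), on 55 to 131 reads per library. The adjusted p of Slc6a19 exceeded 0.05 without PA replicate 2 or 3 or without BSA replicate 1 or 2, with a range of 0.0081 to 0.0782 over 17 alternatives. Slc43a2, a basolateral exit path for neutral amino acids, had 0.918, 0.875 and 0.875 RPKM in PA-treated PTECs, against 1.42, 1.29 and 1.17 RPKM in BSA-treated PTECs (log2 fold change -0.49 ± 0.14 (SE), adjusted p = 0.0464). Its call was lost in 10 of the 17 alternatives, among them the fits without any 1 of the libraries other than BSA replicate 3.

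The other 13 members of the class missed the threshold, with log2 fold changes of -0.47 to 0.25. Slc7a6, which exchanges cationic for neutral amino acids, averaged 37.8 ± 0.359 RPKM in PA-treated PTECs and 38.6 ± 0.909 RPKM in BSA-treated PTECs (SD, n = 3 each), and Slc38a10 25.1 ± 1.25 RPKM in PA-treated PTECs and 27.7 ± 1.83 RPKM in BSA-treated PTECs (SD, n = 3 each). Slc6a18, the neighbouring apical carrier of neutral amino acids and glycine, had 2.80, 2.38 and 1.86 RPKM in PA-treated PTECs, against 4.17, 3.62 and 2.25 RPKM in BSA-treated PTECs. Its groups overlapped through BSA replicate 3, and the difference did not pass (log2 fold change -0.47 ± 0.23 (SE), adjusted p = 0.191). The heavy chain gene Slc3a1, which shares 26.5% of its exon bases with Prepl on the opposite strand, averaged 0.744 ± 0.118 RPKM in PA-treated PTECs and 0.642 ± 0.264 RPKM in BSA-treated PTECs (SD, n = 3 each) and the basolateral cationic amino acid carrier gene Slc7a7 1.06 ± 0.199 RPKM in PA-treated PTECs and 1.34 ± 0.0743 RPKM in BSA-treated PTECs (SD, n = 3 each).

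**Figure D3:**
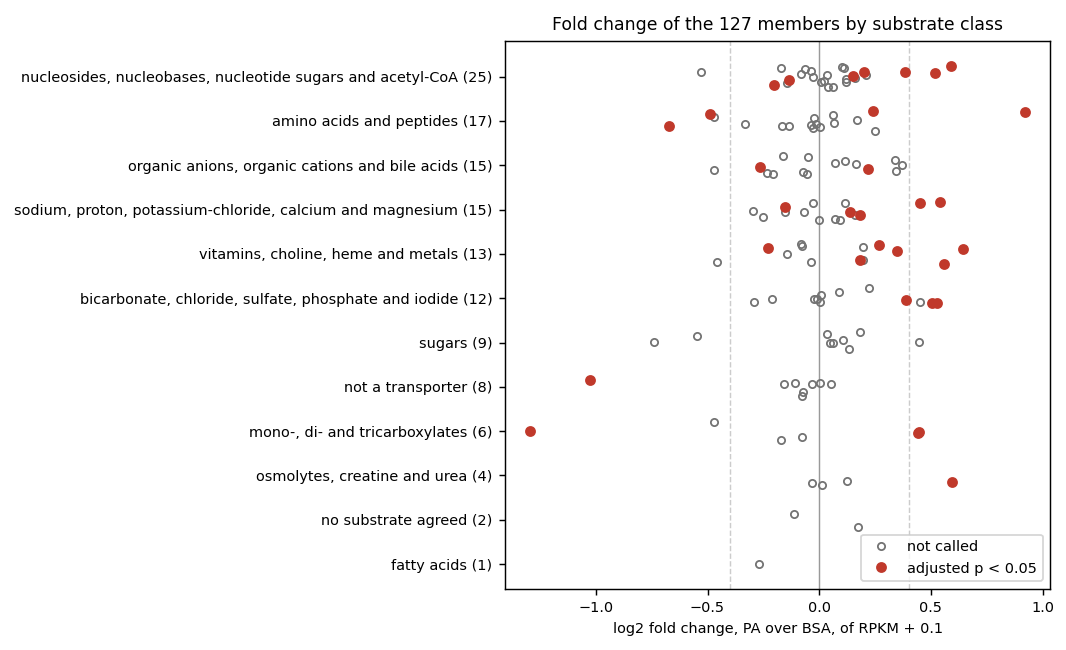
Log2 fold change of PA over BSA (horizontal axis) for each of the 127 members by substrate class (rows, with the number of members), filled where the adjusted p was under 0.05; dashed lines mark 0.4 either side of 0. In 6 classes more called members stand right of 0 than left, Slc13a2 and Slc13a2os stand farthest left, and 0 of the 9 sugar carriers were called. The class with nucleotide sugars includes the 8 genes Slc35e to Slc35g, most without an agreed substrate, of which 4 rose and 2 fell.

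Among the carriers of inorganic anions, 3 of 12 members rose and the other 9 did not pass, and the class had a median log2 fold change of 0.05. Slc20a1, a sodium-coupled phosphate carrier found in most cells, had 31.1, 31.3 and 31.2 RPKM in PA-treated PTECs, against 21.4, 21.1 and 22.4 RPKM in BSA-treated PTECs. It was 1.44-fold higher (log2 fold change 0.53 ± 0.04 (SE), adjusted p = 7.73e-05), with an SD of 0.112 RPKM over the PA libraries. Its relative Slc20a2 was higher still in level, at 43.9 ± 0.479 RPKM in PA-treated PTECs and 41.2 ± 1.13 RPKM in BSA-treated PTECs (SD, n = 3 each), with log2 fold change 0.09 ± 0.03 (SE), adjusted p = 0.102, which did not pass. Slc4a2, which exchanges chloride for bicarbonate, had 44.1, 41.7 and 41.4 RPKM in PA-treated PTECs, against 34.0, 32.8 and 30.3 RPKM in BSA-treated PTECs (log2 fold change 0.39 ± 0.05 (SE), adjusted p = 0.00163). Slc26a11, a sulfate and chloride carrier placed in lysosomes in human cells, had 2.61, 2.0 and 2.50 RPKM in PA-treated PTECs, against 1.58, 1.77 and 1.55 RPKM in BSA-treated PTECs on 74 to 142 reads per library (log2 fold change 0.50 ± 0.13 (SE), adjusted p = 0.0298). PA replicate 2 of Slc26a11 lay close to the BSA libraries, and the call was lost in 6 of the 17 alternatives, 5 of them fits without 1 library. The sodium-bicarbonate carrier gene Slc4a4, the typical one of the proximal tubule, averaged 1.25 ± 0.0607 RPKM in PA-treated PTECs and 1.25 ± 0.141 RPKM in BSA-treated PTECs (SD, n = 3 each). The 9 members that did not pass had log2 fold changes of -0.29 to 0.45.

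The 250 bases before the annotated start (RefSeq promoter table, GRCm38.p6) were searched in both strands for the letters CACGTG, the palindromic core of the E-box. The search is a description of the members, and a link of the motif to the calls was not tested. Of the 8765 genes tested with a window in the table, 894 (10.2%) held it. Among members it stood before 5 of the 17 that rose and had a window, 0 of the 7 that fell and 8 of the 73 that did not pass. The windows of Slc38a7 and Slc20a1, the 2 members with a window and the lowest adjusted p, and of Slc13a2, the member that fell most, are shown 5' to 3' on the strand of the gene with CACGTG in capitals. Slc38a7 lies at chr8:95853492-95853741 (minus strand), Slc20a1 at chr2:129198523-129198772 (plus strand) and Slc13a2 at chr11:78422235-78422484 (minus strand).
Slc38a7: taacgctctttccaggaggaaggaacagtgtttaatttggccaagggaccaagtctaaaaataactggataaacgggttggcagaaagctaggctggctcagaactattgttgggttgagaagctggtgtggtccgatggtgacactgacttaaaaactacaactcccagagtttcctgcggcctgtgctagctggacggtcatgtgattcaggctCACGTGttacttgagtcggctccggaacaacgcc
Slc20a1: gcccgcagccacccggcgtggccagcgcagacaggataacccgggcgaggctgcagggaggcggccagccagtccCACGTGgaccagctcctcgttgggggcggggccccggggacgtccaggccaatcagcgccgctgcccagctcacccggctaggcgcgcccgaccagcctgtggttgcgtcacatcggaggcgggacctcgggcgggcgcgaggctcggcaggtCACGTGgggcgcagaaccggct
Slc13a2: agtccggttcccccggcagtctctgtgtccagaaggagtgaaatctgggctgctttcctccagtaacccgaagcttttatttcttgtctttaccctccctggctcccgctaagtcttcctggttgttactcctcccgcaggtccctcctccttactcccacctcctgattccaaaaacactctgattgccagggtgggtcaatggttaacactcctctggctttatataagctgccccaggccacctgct
The table holds another window for Slc20a1, from 129206846 to 129207095, with 0 matches. The match in Slc38a7 begins at position -34 from the start, and those in Slc20a1 begin at -175 and -22. The 2 annotations differ in their starts: the 48 bases of the Slc38a7 window nearest the start, which include its match, and the 9 nearest the start of Slc20a1, which hold none, lie inside the gene as GENCODE vM21 places it. Slc13a2 holds no match in this window.

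Of the 6 carriers of mono-, di- and tricarboxylates, 2 rose and 1 fell, and the median log2 fold change was -0.12. Slc16a1 and Slc16a3, which carry lactate and other monocarboxylates together with protons, both rose. Slc16a1 had 28.6, 29.8 and 29.8 RPKM in PA-treated PTECs, against 19.9, 21.5 and 23.4 RPKM in BSA-treated PTECs (log2 fold change 0.45 ± 0.06 (SE), adjusted p = 0.00180), and Slc16a3 had 28.5, 27.6 and 27.8 RPKM in PA-treated PTECs, against 21.8, 21.5 and 18.5 RPKM in BSA-treated PTECs (log2 fold change 0.44 ± 0.06 (SE), adjusted p = 0.0030). In both genes the groups did not overlap and the BSA libraries were more spread than the PA libraries. Slc13a2, the apical carrier that takes up citrate and other dicarboxylates with sodium, had 1.06, 0.869 and 0.892 RPKM in PA-treated PTECs, against 2.39, 2.67 and 2.3 RPKM in BSA-treated PTECs. It was 2.46-fold lower on the log2(RPKM + 0.1) scale (log2 fold change -1.30 ± 0.13 (SE), adjusted p = 0.000431), on 34 to 126 reads per library, and stayed past the threshold in all 17 alternatives. Slc13a5, the sodium-coupled citrate carrier, had 0.455, 0.446 and 0.488 RPKM in PA-treated PTECs, against 0.733, 0.709 and 0.606 RPKM in BSA-treated PTECs on 26 to 50 reads per library. All 3 PA libraries of Slc13a5 were below the BSA libraries, but the difference did not pass (log2 fold change -0.47 ± 0.20 (SE), adjusted p = 0.141). Slc16a11 and Slc16a8 had log2 fold changes of -0.17 and -0.08 and did not pass, as did the single fatty acid member, Slc27a3, at -0.27.

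Slc13a2os, an antisense transcript and not a carrier, overlaps Slc13a2 on chromosome 11: it runs from 78394485 to 78405657 on the plus strand, and Slc13a2 from 78397087 to 78422217 on the minus strand. It had 1.54, 1.59 and 1.53 RPKM in PA-treated PTECs, against 3.18, 3.21 and 3.43 RPKM in BSA-treated PTECs (log2 fold change -1.03 ± 0.09 (SE), adjusted p = 0.000196), so that both rows fell. The 2 genes share 632 exon bases in GENCODE vM21, which are 26.2% of those of Slc13a2 and 17.4% of those of Slc13a2os. Whether the authors counted reads by strand is not stated, so reads of the 2 genes may not have been kept apart. Exon bases of several other called members also overlap a neighbour on the opposite strand, with Slc4a2 and Fastk (13.7%) and Slc5a6 and Atraid (9.9%) having the highest shares, and Slc10a3 shares 12.8% with Ubl4a on the same strand. The other 7 members that encode no transporter did not pass, with log2 fold changes of -0.16 to 0.05.

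In the class of vitamins, choline, heme and metals, 5 of 13 members rose and 1 fell, and the median log2 fold change was 0.18. Slc48a1, which moves heme from endosomes and lysosomes to the cytosol, was the most abundant of the 127 members in PA-treated PTECs and had 90.9, 88.3 and 86.9 RPKM in PA-treated PTECs, against 58.9, 57.2 and 54.0 RPKM in BSA-treated PTECs. It was 1.56-fold higher (log2 fold change 0.65 ± 0.04 (SE), adjusted p = 4.07e-05), with the lowest PA library well above the highest BSA library. Slc5a6, the sodium-dependent carrier of biotin and pantothenate, had 8.57, 7.92 and 7.88 RPKM in PA-treated PTECs, against 5.60, 5.33 and 5.50 RPKM in BSA-treated PTECs (log2 fold change 0.56 ± 0.06 (SE), adjusted p = 0.000501).

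Slc23a2, a sodium-coupled carrier of ascorbate, had 7.69, 7.90 and 7.65 RPKM in PA-treated PTECs, against 5.90, 6.35 and 5.98 RPKM in BSA-treated PTECs (log2 fold change 0.35 ± 0.05 (SE), adjusted p = 0.00384). Slc31a1, the copper importer of the plasma membrane, had 20.9, 19.9 and 20.8 RPKM in PA-treated PTECs, against 16.4, 17.1 and 17.7 RPKM in BSA-treated PTECs (log2 fold change 0.27 ± 0.04 (SE), adjusted p = 0.00517). Both lay under a log2 fold change of 0.4 and kept their calls in all 17 alternatives, whereas the rise of the reduced folate carrier gene Slc19a1 (log2 fold change 0.18 ± 0.05 (SE), adjusted p = 0.0328), at 29.2 ± 1.76 RPKM in PA-treated PTECs and 25.7 ± 0.310 RPKM in BSA-treated PTECs (SD, n = 3 each), was lost in 8 of them. Slc44a1, a choline carrier, fell (log2 fold change -0.23 ± 0.06 (SE), adjusted p = 0.0374), at 5.74 ± 0.128 RPKM in PA-treated PTECs and 6.76 ± 0.431 RPKM in BSA-treated PTECs (SD, n = 3 each), and its call was lost in 7 of the 17. Slc44a2, also of the choline carrier family, averaged 18.8 ± 0.898 RPKM in PA-treated PTECs and 19.4 ± 1.03 RPKM in BSA-treated PTECs (SD, n = 3 each). The 7 members that did not pass had log2 fold changes of -0.46 to 0.20, among them both riboflavin carrier genes, Slc52a2 at -0.15 and Slc52a3 at -0.46.

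Of the 4 carriers of osmolytes, creatine and urea, the creatine carrier gene Slc6a8 rose: it had 17.9, 18.0 and 18.4 RPKM in PA-treated PTECs, against 12.2, 11 and 12.7 RPKM in BSA-treated PTECs, a 1.51-fold difference (log2 fold change 0.60 ± 0.06 (SE), adjusted p = 0.000377) with no overlap. Slc6a6, the taurine carrier and the most abundant of the class, averaged 74.6 ± 3.29 RPKM in PA-treated PTECs and 68.5 ± 3.05 RPKM in BSA-treated PTECs (SD, n = 3 each) and did not pass (log2 fold change 0.12 ± 0.05 (SE), adjusted p = 0.101). The urea carrier gene Slc14a1 averaged 11.4 ± 0.535 RPKM in PA-treated PTECs and 11.3 ± 0.227 RPKM in BSA-treated PTECs (SD, n = 3 each), and the myo-inositol carrier gene Slc5a3 had a log2 fold change of -0.03 ± 0.07 (SE).

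Among carriers of sodium, protons, potassium-chloride, calcium and magnesium, 4 of 15 rose and 1 fell, with a median log2 fold change of 0.07. Slc8b1, which releases calcium from mitochondria in exchange for sodium or lithium, had 7.19, 7.0 and 6.82 RPKM in PA-treated PTECs, against 4.75, 4.94 and 4.67 RPKM in BSA-treated PTECs (log2 fold change 0.54 ± 0.06 (SE), adjusted p = 0.000524). Slc41a2, of a magnesium carrier family, had 2.90, 3.03 and 2.83 RPKM in PA-treated PTECs, against 1.98, 2.15 and 2.21 RPKM in BSA-treated PTECs (log2 fold change 0.45 ± 0.09 (SE), adjusted p = 0.00990), and its adjusted p was 0.0517 without PA replicate 2. The groups did not overlap in either gene.

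The chloride cotransporters moved by small amounts in both directions. Slc12a4, which carries potassium and chloride out of the cell, had 38.3, 39.0 and 38.5 RPKM in PA-treated PTECs, against 35.1, 35.3 and 34.8 RPKM in BSA-treated PTECs (log2 fold change 0.14 ± 0.03 (SE), adjusted p = 0.0181). Slc12a2, which brings sodium, potassium and chloride in, had 24.3, 24.2 and 24.4 RPKM in PA-treated PTECs, against 26.3, 27.3 and 27.4 RPKM in BSA-treated PTECs and was 1.11-fold lower (log2 fold change -0.15 ± 0.03 (SE), adjusted p = 0.0198). The groups did not overlap in either gene, and both calls were lost without PA replicate 2, without PA replicate 3 or without BSA replicate 2. The call of Slc12a2 was also lost without PA replicate 1. In all, it was lost in 5 of the 17 alternatives, and that of Slc12a4 in 3. Slc12a9, a relative whose substrate is not settled, rose (log2 fold change 0.18 ± 0.05 (SE), adjusted p = 0.0417), a call lost in 8 of the 17 alternatives. Slc12a7, another potassium-chloride cotransporter gene, averaged 16.9 ± 0.507 RPKM in PA-treated PTECs and 17.2 ± 1.15 RPKM in BSA-treated PTECs (SD, n = 3 each). The sodium-proton exchanger genes Slc9a5 and Slc9a8 had log2 fold changes of -0.15 and 0.09 and did not pass.

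The largest class was named for carriers of nucleosides, nucleobases, nucleotide sugars and acetyl-CoA. It was assigned by family and also holds the 8 genes Slc35e to Slc35g, most of them without an agreed substrate. Of the 25 members of the class, 5 rose and 2 fell, with a median log2 fold change of 0.04. Its most abundant genes did not pass: the nucleoside carrier gene Slc29a1 averaged 70.2 ± 0.891 RPKM in PA-treated PTECs and 65.4 ± 2.58 RPKM in BSA-treated PTECs (SD, n = 3 each), Slc35b1 of the endoplasmic reticulum 52.9 ± 2.76 RPKM in PA-treated PTECs and 48.9 ± 1.83 RPKM in BSA-treated PTECs (SD, n = 3 each), and Slc35a4 45.7 ± 1.29 RPKM in PA-treated PTECs and 47.9 ± 2.01 RPKM in BSA-treated PTECs (SD, n = 3 each). Of the 13 genes Slc35a to Slc35d, the branch with known nucleotide sugar carriers, 1 was called: Slc35a3, which brings UDP-N-acetylglucosamine into the Golgi apparatus, rose (log2 fold change 0.15 ± 0.04 (SE), adjusted p = 0.0357), and the call was lost in 7 of the 17 alternatives, among them the fit without any 1 of the 6 libraries. The 8 genes Slc35e to Slc35g, most of them without an agreed substrate, held the other 4 members of the class that rose and the 2 that fell.

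Slc35e4, one of these orphan genes, had 23.3, 22.5 and 23.5 RPKM in PA-treated PTECs, against 15.6, 16.1 and 14.2 RPKM in BSA-treated PTECs (log2 fold change 0.59 ± 0.05 (SE), adjusted p = 0.000283). Slc35f6, whose protein has been found in lysosomes, had 15.8, 14.7 and 15.1 RPKM in PA-treated PTECs, against 10.8, 11.3 and 9.65 RPKM in BSA-treated PTECs (log2 fold change 0.52 ± 0.07 (SE), adjusted p = 0.00150). Slc35f5, also an orphan, had 9.46, 9.02 and 8.14 RPKM in PA-treated PTECs, against 6.90, 7.05 and 6.36 RPKM in BSA-treated PTECs (log2 fold change 0.38 ± 0.07 (SE), adjusted p = 0.00893). These 3 rises kept their calls in all 17 alternatives, and the groups did not overlap in any of them. Smaller differences were found in Slc35e3 (log2 fold change 0.20 ± 0.06 (SE), adjusted p = 0.0485), Slc35e1 (log2 fold change -0.14 ± 0.04 (SE), adjusted p = 0.0381) and Slc35g1 (log2 fold change -0.20 ± 0.05 (SE), adjusted p = 0.0231), the first higher and the others lower in PA-treated PTECs; their calls were lost in 7, 9 and 3 of the 17 alternatives. The 18 members of the class that did not pass had log2 fold changes of -0.53 to 0.21.

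Among the carriers of organic anions, organic cations and bile acids, 1 of 15 members rose and 1 fell, both by little, with a median log2 fold change of -0.05. Slc10a3, a relative of the bile acid carriers with no agreed substrate, rose (log2 fold change 0.22 ± 0.06 (SE), adjusted p = 0.0332), and Slco5a1, an organic anion carrier family member, fell, with 4.76 ± 0.157 RPKM in PA-treated PTECs and 5.73 ± 0.0546 RPKM in BSA-treated PTECs (SD, n = 3 each; log2 fold change -0.26 ± 0.06 (SE), adjusted p = 0.0156). The call of Slc10a3 was lost in 7 of the 17 alternatives and that of Slco5a1 in 3. The prostaglandin carrier gene Slco2a1, the most abundant of the class, averaged 51.1 ± 2.93 RPKM in PA-treated PTECs and 47.1 ± 2.63 RPKM in BSA-treated PTECs (SD, n = 3 each), and Slc22a23 19.4 ± 0.844 RPKM in PA-treated PTECs and 18.5 ± 1.36 RPKM in BSA-treated PTECs (SD, n = 3 each). The carnitine carrier gene Slc22a5 averaged 5.85 ± 0.0907 RPKM in PA-treated PTECs and 6.06 ± 0.126 RPKM in BSA-treated PTECs (SD, n = 3 each). Its relatives Slc22a4, which carries ergothioneine, and Slc22a21, a carnitine carrier, had log2 fold changes of 0.37 ± 0.12 (SE) and -0.24 ± 0.07 (SE), with adjusted p-values of 0.0605 and 0.0608; Slc22a5 and Slc22a21 are close copies, and reads shared between them may have been split. The 13 members that did not pass had log2 fold changes of -0.47 to 0.37.

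None of the 9 sugar carriers passed limma's test, while 2 of them had an unadjusted p under 0.05 and 2 were called by voom on the recovered reads. Slc50a1, a sugar carrier of the Golgi apparatus, averaged 12.4 ± 0.909 RPKM in PA-treated PTECs and 12.1 ± 1.53 RPKM in BSA-treated PTECs (SD, n = 3 each). Slc37a3, a sugar-phosphate carrier family member of lysosomes, averaged 12.1 ± 0.842 RPKM in PA-treated PTECs and 11.6 ± 0.697 RPKM in BSA-treated PTECs (SD, n = 3 each) and Slc45a4 9.68 ± 0.531 RPKM in PA-treated PTECs and 8.51 ± 0.356 RPKM in BSA-treated PTECs (SD, n = 3 each). Slc2a2, the basolateral glucose carrier of the tubule, had 0.713, 0.414 and 0.50 RPKM in PA-treated PTECs, against 0.797, 0.704 and 0.990 RPKM in BSA-treated PTECs, with overlap through PA replicate 1 (log2 fold change -0.55 ± 0.24 (SE), adjusted p = 0.149). Their log2 fold changes ran over -0.74 to 0.45, and the lower end was Slc37a1, which lay just inside the minimum level. The 2 monocarboxylate carrier relatives without an agreed substrate, Slc16a13 and Slc16a4, had log2 fold changes of 0.17 and -0.11. Across all classes, 0 of the 17 members under a mean of 1 RPKM were called by limma, with 1 at an unadjusted p under 0.05 and 1 called by voom, whereas 15 of the 47 members at 10 RPKM or more rose and 2 fell. Calls were also rarer at low levels among all genes tested: under 1 RPKM 1.61% rose and 2.36% fell, and at 10 RPKM or more 14.4% rose and 12.0% fell.

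By place in the cell, the lists were drawn up after the values had been seen and are therefore given as a description. Beside both lists stand the shares of all genes tested, of which 11.2% rose and 9.52% fell. Of 14 carriers of the lysosome or late endosome, 4 rose and the other 10 did not pass, and the median over the 14 was 0.12 on the log2 scale. The 4 were Slc38a7, Slc48a1, Slc35f6 and Slc26a11. Of the others, Slc2a6, a hexose carrier family member, was highest, at 0.45 ± 0.23 (SE) and close to Slc26a11 at 0.50 ± 0.13 (SE). The histidine and peptide carrier gene Slc15a4 had a log2 fold change of 0.07 ± 0.07 (SE), the arginine-sensing carrier gene Slc38a9 -0.04 ± 0.11 (SE), the sialic acid carrier gene Slc17a5 0.17 ± 0.11 (SE) and the nucleoside carrier gene Slc29a3 -0.14 ± 0.06 (SE). Of 12 carriers known for reabsorption in the proximal tubule, 3 fell (Slc13a2, Slc6a19 and Slc43a2) and the other 9 did not pass, with a median of -0.21. The log2 fold change was above 0 in 4 of the 12 and below 0 in 8. These 12 genes were low in the cultured cells, with a median level of 1.47 RPKM, and the 3 that fell averaged 0.889 to 1.46 RPKM in PA-treated PTECs and 1.29 to 2.45 RPKM in BSA-treated PTECs.

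**Figure D4:**
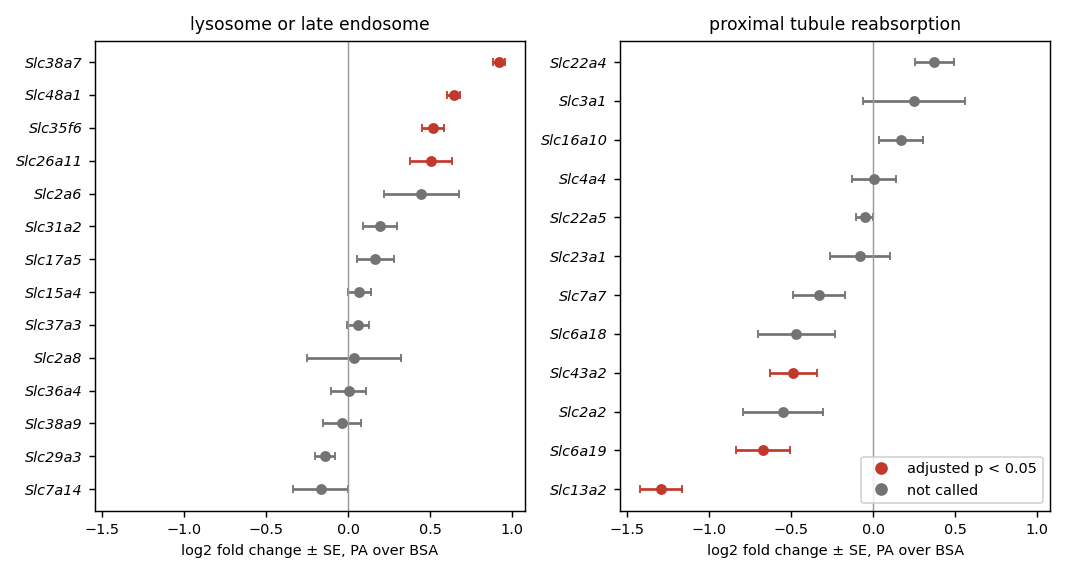
Log2 fold change of PA over BSA with its SE (horizontal axis) for 14 carriers of the lysosome or late endosome (left) and 12 carriers of proximal tubule reabsorption (right), red where the adjusted p was under 0.05. On the left 4 genes are red at 0.50 to 0.92 and the rest lie from -0.17 to 0.45. On the right 3 genes are red at -0.49 to -1.30 and the rest lie from -0.55 to 0.37.

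A list of 30 genes that work with these carriers (pump subunits, chaperones, scaffold proteins, kinases and transcription factors) was also read. The list was drawn up with earlier results of these data known. Of the 22 that reached the minimum level, 5 rose and 2 fell, with a median log2 fold change of 0.06. Among all genes tested, 11.2% rose and 9.52% fell. Sgk1, a kinase that raises the activity of many carriers and channels, had 3.07, 3.36 and 3.70 RPKM in PA-treated PTECs, against 1.72, 1.52 and 1.86 RPKM in BSA-treated PTECs, with no overlap (log2 fold change 0.95 ± 0.11 (SE), adjusted p = 0.00108). Nfat5, the transcription factor of the osmotic response, which drives the carrier genes Slc6a6 and Slc5a3, averaged 25.1 ± 0.745 RPKM in PA-treated PTECs and 20.5 ± 0.174 RPKM in BSA-treated PTECs (SD, n = 3 each; log2 fold change 0.29 ± 0.04 (SE), adjusted p = 0.00163). Basigin (Bsg), the chaperone that brings the lactate carriers of Slc16a1 and Slc16a3 to the membrane, also rose, with 387 ± 1.11 RPKM in PA-treated PTECs and 336 ± 23.6 RPKM in BSA-treated PTECs (SD, n = 3 each; log2 fold change 0.21 ± 0.05 (SE), adjusted p = 0.0243).

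Atp1b1, a beta subunit of the sodium pump, rose by a small amount (log2 fold change 0.18 ± 0.04 (SE), adjusted p = 0.0198). Another beta subunit gene, Atp1b3, averaged 49.8 ± 1.82 RPKM in PA-treated PTECs and 46.7 ± 2.49 RPKM in BSA-treated PTECs (SD, n = 3 each). It did not pass (log2 fold change 0.09 ± 0.05 (SE), adjusted p = 0.205). Carbonic anhydrase 2 (Car2), which supplies bicarbonate and protons to ion carriers, fell (log2 fold change -0.58 ± 0.14 (SE), adjusted p = 0.0261). The calls of Bsg, Atp1b1 and Car2 were lost in 4 to 5 of the 17 alternatives, those of Sgk1 and Nfat5 in 0. Hnf4a averaged 0.144 RPKM in PA-treated PTECs and 0.183 RPKM in BSA-treated PTECs and was not tested.

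**Figure D5:**
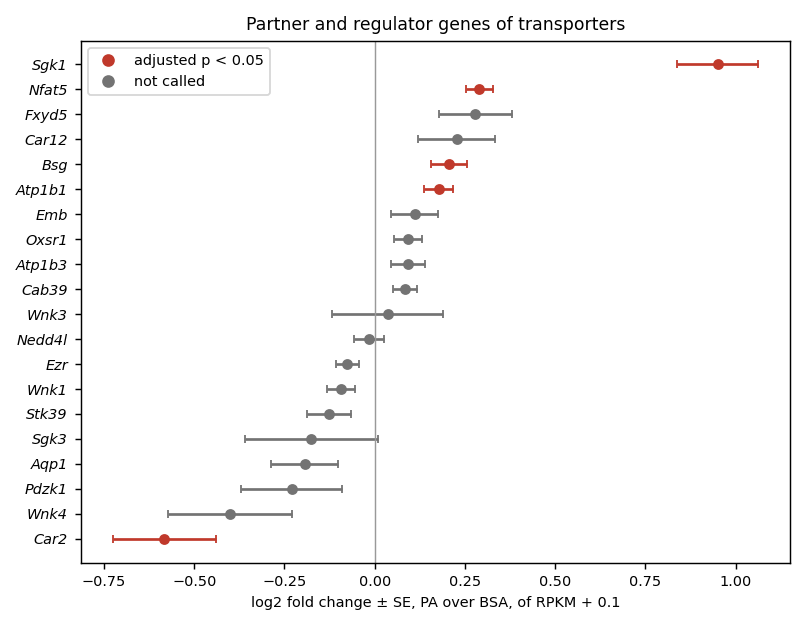
Log2 fold change of PA over BSA with its SE (horizontal axis) for 20 of the partner and regulator genes that were tested, red where the adjusted p was under 0.05. Sgk1 stands apart at 0.95, the other 3 shown that rose lie at 0.18 to 0.29, and Car2 fell by 0.58.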

How the data were processed

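RNA of immortalized wild-type PTECs was sequenced by the authors with a stranded mRNA kit, 3 libraries per group. Base calls were made with bcl2fastq and reads were mapped to GRCm38 with TopHat2 2.1.1, per the submitters' processing notes and the paper; no source used here gives the program that counted reads, its annotation or its use of strand. The paper names more than 1 sequencing center, and which library each handled is not stated. The authors deposited RPKM values per gene and library, beside columns of their own edgeR comparison (log fold change, p-value, FDR and rank) that were not used. Columns were matched to the labels by treatment initial and replicate number.

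The values were tested with limma 3.58.1 (R 4.3.3; lmFit, eBayes with a variance trend, condition only) on log2(RPKM + 0.1) for the 11671 genes with a mean of at least 0.5 RPKM, with Benjamini-Hochberg adjustment over all of them. Called genes had an adjusted p under 0.05, and both thresholds add an absolute log2 fold change over 0.4. Fold changes on this scale understate those of low genes. In 100% of genes the RPKM values were whole reads times a step for that gene (tolerance 1e-06); the recovered reads served for read ranges, the comparison of libraries and limma voom, an alternative that called 2902 genes against 2413. The 17 alternatives were: other pseudocounts, minimum levels, scalings, no variance trend, voom, a replicate block, removal of a GC trend, and each library left out.

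The members, the substrate classes and the lists were chosen with earlier results of these data known; the classes follow textbook substrates of each family. Named genes are every called member, the 3 most abundant of each class and those nearest the minimum level; others were named after their values had been seen, and a few genes are counted but not reported here by name. Gene positions are those of GENCODE vM21 (GRCm38), and promoter windows are from RefSeq (GRCm38.p6), which held a window for 97 of the 127 members.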

Additional observations from a re-analysis of the deposited data

How the results depend on the processing

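Under the 17 alternatives the members that rose numbered 16 to 30 (23 as reported), and those past both thresholds 13 to 18 (16 as reported). The members that fell numbered 6 to 12 (9 as reported) in fits of all 6 libraries, and 2 to 13 with 1 library left out, the lowest without PA replicate 2, without PA replicate 3 or without BSA replicate 2, and the highest without BSA replicate 3. With 1 library left out, 16 to 21 members rose and 14 to 15 were past both thresholds; these fits test fewer libraries. Of the 32 called members, 17 kept their call in every alternative (15 higher, and Slc13a2 and Slc13a2os lower), and 0 of 2516 values of the 149 members and partner genes were called with the opposite sign. Leaving out the 8 members that encode no transporter, a choice made after seeing the data, gave 23 higher, 8 lower and 15 past both thresholds.

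With the replicate number as a block, 23 members rose, 10 fell and 16 were past both thresholds; with the block and the GC trend removed, 27 rose, 8 fell and 18 were past both. Same-numbered libraries did not deviate together (r = 0.0348, -0.0356 and 0.0942 across genes, which are not independent replicates), so the numbers were not taken to pair the samples. Low members carry few reads, such as 34 to 126 for Slc13a2 and 14 to 42 for Slc3a1, which limits the precision of their values.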
